A study of Homo sapiens with 12 samples.

Results

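The HOXB cluster is a run of homeobox genes on human chromosome 17, and the 9 protein-coding genes described here are HOXB2, HOXB3, HOXB4, HOXB5, HOXB6, HOXB7, HOXB8, HOXB9 and HOXB13. They were taken by symbol from a table of 78930 genes counted in 12 RNA-seq libraries, 3 in each of 4 groups. All 9 passed the filter on low counts and had at least 10 counts in every library. The cells were OCI-AML3, an established cell line from human acute myeloid leukaemia with mutant nucleophosmin that is misplaced to the cytoplasm (NPM1c), and the labels give every group the genotype NPM1c-degron. Per the design text, 1 NPM1 allele is wild type and the other is fused to a degron, a tag through which dTAG-13 directs the mutant protein to degradation.

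The dTAG FL-NPM1c group was transduced with lentivirus for full-length NPM1c, the dTAG C-body null group with a construct the labels call by that name and do not define further, and the dTAG mCherry group with mCherry alone. These 3 groups received 500 nM dTAG-13 at 48 hours after transduction, and 24 hours after that the mCherry-positive cells were collected by flow sorting. The NTC DMSO group received the solvent by its title, although its treatment label reads dTAG. Neither the meaning of NTC nor a construct for this group is given, so virus, construct and degrader cannot be told apart in comparisons with it. The cell line labels carry running numbers while the protocol names 1 line. No label says that replicates are separate cultures. The p-values therefore reflect only how far these libraries differ among themselves, which may be technical.

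HOX genes encode transcription factors that bind DNA through a homeodomain, usually together with TALE-class partners such as MEIS1 and PBX proteins. Their order along the chromosome matches the order in which they are used along the head-to-tail axis of the embryo, with low numbers at the 3′ end of the cluster and high numbers at the 5′ end. In blood formation, HOXA and HOXB genes are active in stem and progenitor cells and decline as cells mature. Persistent HOXA, HOXB and MEIS1 expression is a known feature of NPM1-mutant leukaemia and depends on the menin-MLL (KMT2A) complex, while Polycomb proteins keep HOX clusters silent in cells that do not use them. The comparisons ask how the cluster responds when tagged NPM1c is degraded, and whether each construct changes that.

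All 9 genes lie on the minus strand of chromosome 17 (GRCh38, GENCODE 29). Starting from the 3′ end of the cluster, HOXB2 spans 48540894 to 48544989 (ENSG00000173917), HOXB3 spans 48548870 to 48604912 (ENSG00000120093) and HOXB4 spans 48575513 to 48580111 (ENSG00000182742). HOXB5 spans 48591257 to 48593961 (ENSG00000120075), HOXB6 spans 48595751 to 48604992 (ENSG00000108511) and HOXB7 spans 48607227 to 48633572 (ENSG00000260027). HOXB8 spans 48611377 to 48614939 (ENSG00000120068), HOXB9 spans 48621159 to 48626356 (ENSG00000170689) and HOXB13 spans 48724763 to 48729178 (ENSG00000159184). HOXB13 stands apart from the rest, with its 3′ end 183.9 kb from that of HOXB2, against 80.3 kb for HOXB9. Long alternative transcripts make the annotated spans of HOXB3 and HOXB7 run across their neighbours.

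Shared annotation limits some of the counts. Exons of HOXB4 and HOXB6 share 17.06% and 16.63% of their bases with exons of other genes on the same strand, and HOXB3 shares 7.94%. On the opposite strand, exons of the antisense RNA HOXB-AS3 lie over 16.32% of HOXB6 exon bases and 3.58% of those of HOXB5. HOXB-AS1 exons lie over 3.72% of those of HOXB2, and HOXB-AS1 and HOXB-AS3 together over 5.27% of those of HOXB3. The library kit was stranded, but the strand setting of the counting is not given in the sources used here, so reads of such pairs may not have been separated. HOXB7, HOXB8, HOXB9 and HOXB13 share no exon base with another annotated gene on either strand. No 50-base stretch of the transcripts of HOXB2, HOXB8, HOXB9 or HOXB13 occurs in another gene's transcripts, against 1.63% of stretches for HOXB7, 12.38% for HOXB4 and 14.61% for HOXB6.

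The 2 antisense RNAs HOXB-AS1 and HOXB-AS2 start inside the cluster and were measured beside the 9 genes, so the 250 bases before the start of each are shown here, from RefSeq (GRCh38.p14), 5′ to 3′ on the plus strand and counted from the RefSeq start (for HOXB-AS1 within the span of HOXB2), with CG dinucleotides in capitals.
HOXB-AS1, chr17:48544101-48544350: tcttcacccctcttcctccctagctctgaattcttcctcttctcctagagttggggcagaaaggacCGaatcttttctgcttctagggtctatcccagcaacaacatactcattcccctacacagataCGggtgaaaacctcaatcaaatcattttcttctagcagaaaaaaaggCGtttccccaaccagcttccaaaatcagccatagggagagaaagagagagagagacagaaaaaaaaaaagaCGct
HOXB-AS2, chr17:48555907-48556156: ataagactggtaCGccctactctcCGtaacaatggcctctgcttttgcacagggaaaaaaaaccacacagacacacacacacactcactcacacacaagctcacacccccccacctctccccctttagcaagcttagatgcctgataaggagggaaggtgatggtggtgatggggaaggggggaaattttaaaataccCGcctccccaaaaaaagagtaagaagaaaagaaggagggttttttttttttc
These windows hold 4 and 3 CG dinucleotides, and 34.34% and 29.31% of the 35116 promoters in the same table hold as few or fewer, with a median of 11. Neither window holds TGATNNAT (the core shared by HOX-PBX sites), TGACAG (the MEIS core) or TATAAA on either strand, which 6.473%, 13.034% and 10.716% of those promoters do. GENCODE 29 places both starts elsewhere. HOXB-AS1 starts there at 48543551, so its window lies inside that annotated span. HOXB-AS2 starts there at 48557262, past the end of its window and not next to it.

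The 12 libraries held between 30.5 M and 59.9 M counts in genes (median 41.0 M). Levels are CPM, counts scaled to the effective library total (TMM normalization). NPM1 itself was at 1296 to 1515 CPM in NTC DMSO, 1059 to 1387 in dTAG mCherry, 1608 to 1684 in dTAG FL-NPM1c and 1897 to 1937 in dTAG C-body null. Its gene count does not separate the wild-type allele, the tagged allele and a construct, and degradation acts on the protein, so it does not test the labels. All 7 markers of the myeloid lineage that OCI-AML3 belongs to were expressed, while CD3D, CD3E, CD2, HBB and EPCAM were at 0 in every group. Across all genes, leaving out dTAG mCherry replicate 2 moved the number of calls from 3735 to 6834 for FL-NPM1c and from 143 to 1399 for C-body null against dTAG mCherry. The numbers of HOXB genes called in the 3 comparisons that use this library were the same without it.

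HOXB9 and HOXB8, at the 5′ end of the main run of the cluster, had the widest spread of group means relative to NTC DMSO. HOXB9, which patterns the thoracic region in the embryo, was at 5.23, 4.88 and 4.70 CPM in NTC DMSO and at 1.24, 1.14 and 0.869 CPM in dTAG mCherry. With FL-NPM1c it was at 5.62, 4.80 and 4.94 CPM, and with C-body null at 0.577, 0.455 and 0.572 CPM. The NTC DMSO and FL-NPM1c libraries overlapped, and both sets lay above every dTAG mCherry library, which in turn lay above every C-body null library.

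HOXB8, whose forced expression holds myeloid progenitors in an immature state, was at 3.70, 3.73 and 4.20 CPM in NTC DMSO and at 1.08, 1.05 and 0.869 CPM in dTAG mCherry. With FL-NPM1c it was at 2.29, 2.94 and 2.33 CPM, and with C-body null at 0.302, 0.329 and 0.357 CPM. Here no group overlapped another, and the order was NTC DMSO, FL-NPM1c, mCherry, C-body null. The C-body null values rest on 11, 13 and 15 counts per library.

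HOXB7 and HOXB6 had the same order of group means as HOXB8. HOXB7 was at 3.74, 3.15 and 3.33 CPM in NTC DMSO, 1.74, 2.02 and 1.80 CPM in dTAG mCherry, 2.35, 3.50 and 2.41 CPM in the FL-NPM1c group and 1.59, 1.27 and 1.33 CPM in the C-body null group. One FL-NPM1c library, replicate 2, reached the NTC DMSO range while the other two lay between that range and dTAG mCherry. HOXB6, which is expressed in haematopoietic progenitors, was at 10.2, 9.73 and 11.9 CPM in NTC DMSO, 6.44, 6.73 and 4.11 CPM in dTAG mCherry, 9.93, 10.2 and 8.93 CPM in the FL-NPM1c group and 4.37, 4.23 and 5.00 CPM with C-body null. For HOXB6 the NTC DMSO and FL-NPM1c libraries overlapped, as did the mCherry and C-body null libraries.

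HOXB5 and HOXB4 lie in the middle of the cluster. HOXB5, a marker of long-term blood stem cells in mice, was at 1.24, 0.900 and 1.82 CPM in NTC DMSO, 1.55, 1.54 and 1.74 CPM in dTAG mCherry, 1.39, 1.35 and 1.48 CPM in the FL-NPM1c group and 1.90, 1.90 and 2.24 CPM with C-body null. Its highest libraries were those of C-body null, the group in which HOXB8 and HOXB9 were lowest. HOXB4, which expands blood stem cells when overexpressed, was at 8.63, 8.68 and 9.94 CPM in NTC DMSO, 8.76, 7.85 and 8.09 CPM in dTAG mCherry, 8.71, 8.51 and 8.38 CPM in the FL-NPM1c group and 6.95, 6.76 and 6.98 CPM with C-body null. NTC DMSO, mCherry and FL-NPM1c libraries overlapped for HOXB4, and the C-body null libraries lay below all of them.

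HOXB3 and HOXB2 lie at the 3′ end and act in the hindbrain of the embryo. HOXB3 was at 32.7, 31.4 and 35.1 CPM in NTC DMSO, 17.2, 19.8 and 17.5 CPM in dTAG mCherry, 28.2, 28.8 and 28.4 CPM in the FL-NPM1c group and 13.0, 12.7 and 12.4 CPM with C-body null, with no overlap between any groups. HOXB2 was at 10.4, 10.9 and 8.48 CPM in NTC DMSO, 4.75, 4.48 and 3.91 CPM in dTAG mCherry, 7.36, 8.21 and 7.61 CPM in the FL-NPM1c group and 3.41, 3.92 and 3.88 CPM with C-body null. Only the mCherry and C-body null libraries overlapped for HOXB2.

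HOXB13, known mainly from prostate and hindgut, was at 3.40, 3.23 and 3.54 CPM in NTC DMSO, 3.76, 3.88 and 2.67 CPM in dTAG mCherry, 3.94, 4.24 and 3.74 CPM in the FL-NPM1c group and 3.22, 3.29 and 3.15 CPM with C-body null. The dTAG mCherry libraries spanned more than the NTC DMSO and C-body null libraries together.

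**Figure D1:**
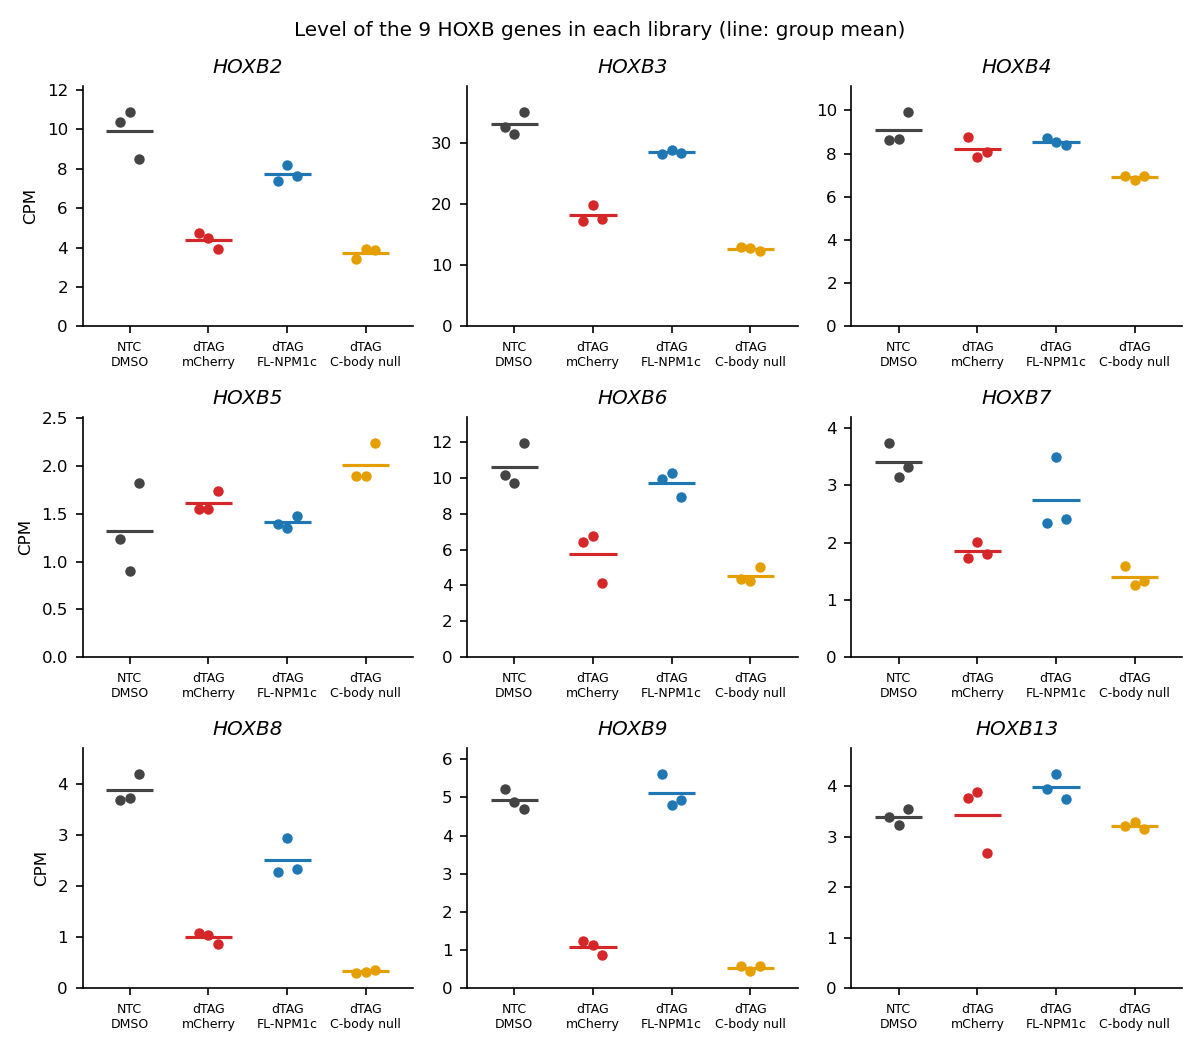
Level of each HOXB gene in CPM (linear axis from 0), with 1 point per library and a line at the mean of the 3 libraries of each group. HOXB8 and HOXB9 lie lowest with C-body null, at 0.302 to 0.357 and 0.455 to 0.577 CPM, while HOXB13 stays between 2.67 and 4.24 CPM in all 12 libraries.

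Levels of different genes were compared per length, as RPKM (CPM divided by exon length in kilobases), with exon lengths from GENCODE 29 that may differ from those the authors counted over. In NTC DMSO, HOXB3 (4.43 ± 0.25 RPKM; SD, n = 3), HOXB2 (4.25 ± 0.54) and HOXB6 (4.08 ± 0.45) were the highest, and their libraries overlapped. HOXB4 (2.42 ± 0.20) and HOXB7 (2.23 ± 0.20) followed and overlapped each other, as did HOXB9 (1.91 ± 0.11) and HOXB8 (1.89 ± 0.14). HOXB13 (0.977 ± 0.046) and HOXB5 (0.647 ± 0.229) were lowest and did not overlap. With C-body null the order changed: HOXB4 (1.84 ± 0.03), HOXB6 (1.74 ± 0.16), HOXB3 (1.70 ± 0.04) and HOXB2 (1.60 ± 0.12) each overlapped the next. HOXB5 (0.986 ± 0.097), HOXB13 (0.928 ± 0.021) and HOXB7 (0.915 ± 0.114) formed a middle group there, above HOXB9 (0.207 ± 0.027) and HOXB8 (0.161 ± 0.013).

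Summed over the 9 genes, the level per length was 22.8 ± 0.74 RPKM (SD, n = 3) for NTC DMSO, 12.6 ± 1.13 for dTAG mCherry, 20.0 ± 0.97 for FL-NPM1c and 10.1 ± 0.27 for C-body null. No 2 groups overlapped in this sum. Its composition differed too. HOXB8 made up 8.27% of the sum in NTC DMSO, 3.86% in dTAG mCherry, 6.13% in the FL-NPM1c group and 1.59% in the C-body null group. The share of HOXB9 was 8.39%, 3.31%, 9.96% and 2.05% in the same order of groups. The share of HOXB4 moved the other way, from 10.6% to 17.5%, 11.4% and 18.2%, and that of HOXB5 from 2.82% to 6.31%, 3.46% and 9.77%. A share also rises when the other genes fall. HOXB4 itself was at 2.42, 2.19, 2.27 and 1.84 RPKM in the same order, so its level did not rise. HOXB5 was at 0.647, 0.789, 0.690 and 0.986 RPKM. HOXB6 stayed between 17.3% and 18.6% of the sum in every group mean.

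**Figure D2:**
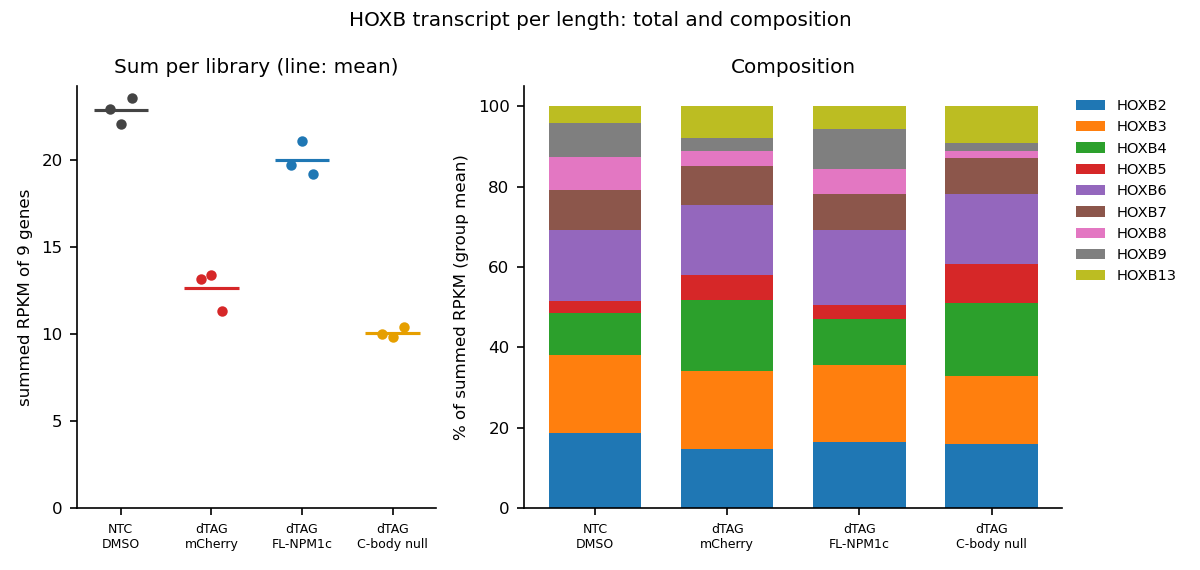
Left, summed RPKM of the 9 HOXB genes in each library, with lines at group means; right, the mean share of each gene in that sum, stacked to 100%. The sum is lowest with C-body null (10.1 RPKM), where the bands of HOXB8 (1.59%) and HOXB9 (2.05%) are the thinnest.

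In dTAG mCherry against NTC DMSO, 6 of the 9 HOXB genes fell and none rose (edgeR quasi-likelihood test, Benjamini-Hochberg adjusted p under 0.05 over all 24064 genes tested). Over all genes tested, 22.6% were called in this comparison, 12.9% higher and 9.69% lower. HOXB9 fell by 2.17 ± 0.15 (SE) on the log2 scale (adjusted p = 3.0e-08), a 4.51-fold lower level, and HOXB8 fell by 1.94 ± 0.16 (adjusted p = 1.8e-07), 3.84-fold. HOXB2 fell by 1.17 ± 0.12 (adjusted p = 2.6e-06), HOXB3 fell by 0.86 ± 0.08 (adjusted p = 1.3e-06), HOXB6 fell by 0.87 ± 0.15 (adjusted p = 0.00049) and HOXB7 fell by 0.87 ± 0.17 (adjusted p = 0.0014). HOXB4 had a log2 difference of -0.14 with a 95% interval of -0.35 to 0.06, HOXB5 of 0.28 (-0.16 to 0.73) and HOXB13 of 0.03 (-0.26 to 0.33). The median log2 difference of the 9 genes was -0.87, while that of all genes tested lay between -0.01 and 0.02 in each of the 6 comparisons. In bulk RNA, fewer cells that express a gene and less RNA per cell cannot be told apart.

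Monocyte and macrophage markers moved with this comparison: all 10 on the list were higher in dTAG mCherry, and their summed level was 470 to 502 CPM in NTC DMSO and 3237 to 3658 CPM in dTAG mCherry. It was 2888 to 3084 CPM in the FL-NPM1c group and 4430 to 4573 CPM with C-body null. None of the 10 was at 0 in any group. Against dTAG mCherry, 3 of the 10 were lower with FL-NPM1c and 1 was higher with C-body null, and between the constructs 6 of 10 were lower with FL-NPM1c. Of all genes, 7.95%, 0.216% and 4.86% were called in the same directions, and 12.9% were higher in dTAG mCherry than in NTC DMSO. Epithelial and fibroblast markers were summed at 60.0 to 67.1 CPM in NTC DMSO, 449 to 559 CPM in dTAG mCherry, 629 to 719 CPM in the FL-NPM1c group and 455 to 553 CPM in the C-body null group. Most of it was FN1, a matrix gene, at a mean of 516 CPM in dTAG mCherry, and EPCAM was at 0. Among 6 stem and progenitor markers KIT was at 0 in every group and 3 were tested. In dTAG mCherry against NTC DMSO GATA2 fell, where 9.69% of all genes were lower. CD99 (log2 difference -0.13) and MSI2 (0.07) did not pass the test there. Over all 12 libraries the T and NK cell list summed to 0.725 to 1.44 CPM, the erythroid and megakaryocyte list to 0.149 to 0.606 CPM and the B and plasma cell list to 1.48 to 6.76 CPM, highest with FL-NPM1c and lowest with C-body null. The part of maturation or of other cells in the HOXB differences was not tested.

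With FL-NPM1c against dTAG mCherry, the same 6 genes (HOXB2, HOXB3, HOXB6, HOXB7, HOXB8 and HOXB9) rose and none fell, where 15.5% of all genes were called in either direction, 7.58% higher and 7.95% lower. Both comparisons use the 3 dTAG mCherry libraries, so they are not independent. The median log2 difference of the 9 genes was 0.64. HOXB9 rose by 2.22 ± 0.15 on the log2 scale (edgeR adjusted p = 2.3e-07), 4.67-fold, and HOXB8 by 1.32 ± 0.16 (adjusted p = 7.0e-05), 2.49-fold. HOXB2 rose by 0.81 ± 0.12 (adjusted p = 0.00039), HOXB6 by 0.74 ± 0.15 (adjusted p = 0.0043) and HOXB3 by 0.64 ± 0.08 (adjusted p = 0.00011). HOXB7 rose by 0.56 ± 0.17 (adjusted p = 0.038), and lost this call when 1 of 4 libraries was left out: FL-NPM1c replicate 2 (0.36, adjusted p = 0.20), FL-NPM1c replicate 1 (adjusted p = 0.050), dTAG mCherry replicate 1 (adjusted p = 0.13) or dTAG mCherry replicate 3 (adjusted p = 0.10). It also ended in a fit of these 2 groups alone (adjusted p = 0.075). HOXB4 (0.05, 95% interval -0.15 to 0.26), HOXB5 (-0.18, -0.61 to 0.25) and HOXB13 (0.19, -0.09 to 0.48) did not pass the test.

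Against NTC DMSO, FL-NPM1c left 2 of the 9 genes lower and none higher, where 27.9% of all genes were called, 14.6% higher and 13.3% lower. The median log2 difference of the 9 genes was -0.13. HOXB8 was lower by 0.63 ± 0.14 (log2 difference -0.63, edgeR adjusted p = 0.0037), with a mean of 65.0% of the NTC DMSO mean. HOXB2 had a log2 difference of -0.36 ± 0.12 (adjusted p = 0.028), which lost the call without NTC DMSO replicate 1 or 2 (adjusted p = 0.10 each), FL-NPM1c replicate 1 (adjusted p = 0.076) or FL-NPM1c replicate 3 (adjusted p = 0.073). HOXB9 stood at 104% of the NTC DMSO mean, with a log2 difference of 0.05 and a 95% interval of -0.22 to 0.32. HOXB3 had a log2 difference of -0.22 ± 0.08 (adjusted p = 0.059), which passed with DESeq2 (adjusted p = 0.023), with RLE factors (adjusted p = 0.041), in a fit of the 2 groups alone (adjusted p = 0.035) and without NTC DMSO replicate 2 (adjusted p = 0.050). HOXB7 had a log2 difference of -0.32 ± 0.16 (adjusted p = 0.16) and was called only without FL-NPM1c replicate 2 (-0.52, adjusted p = 0.033).

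With C-body null against dTAG mCherry, 3 of the 9 genes fell and none rose, where 0.594% of all genes were called, 0.216% higher and 0.378% lower. The median log2 difference of the 9 genes was -0.36. HOXB8 fell by 1.60 ± 0.22 on the log2 scale (edgeR adjusted p = 0.0025), 3.03-fold, and kept its call in every alternative fit run. HOXB9 fell by 1.03 ± 0.20 (adjusted p = 0.024), 2.04-fold, and HOXB3 fell by 0.52 ± 0.09 (adjusted p = 0.0076), 1.43-fold. The HOXB9 call ended without C-body null replicate 1 (adjusted p = 0.082), 2 (adjusted p = 0.14) or 3 (adjusted p = 0.075) and without dTAG mCherry replicate 1 (adjusted p = 0.13). In a fit of these 2 groups alone, HOXB9 (adjusted p = 0.19) and HOXB3 (adjusted p = 0.11) both lost their calls. The number of genes called over the whole table also ran from 60 to 1399 as libraries were left out, 1399 of them without dTAG mCherry replicate 2 against 143 with all libraries. HOXB2, HOXB4, HOXB6 and HOXB7 had log2 differences between -0.42 and -0.23, HOXB13 one of -0.11 and HOXB5 one of 0.33, and none of these 6 passed the test.

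The 2 constructs were also compared directly. With FL-NPM1c, 6 genes were higher than with C-body null and none was lower, where 9.68% of all genes were called, 4.82% higher and 4.86% lower. The median log2 difference of the 9 genes was 1.04. HOXB9 was higher by 3.25 ± 0.17 on the log2 scale (edgeR adjusted p = 9.2e-09), 9.53-fold with a 95% interval of 7.45 to 12.2. HOXB8 was higher by 2.91 ± 0.20 (adjusted p = 9.3e-08), 7.53-fold with an interval of 5.65 to 10.0. HOXB3 (1.16 ± 0.09, adjusted p = 1.6e-07), HOXB6 (1.09 ± 0.15, adjusted p = 0.00016), HOXB2 (1.04 ± 0.12, adjusted p = 3.2e-05) and HOXB7 (0.97 ± 0.18, adjusted p = 0.0017) were higher by smaller amounts. These 6 calls held in every alternative fit run. HOXB4 had a log2 difference of 0.31 ± 0.10 (adjusted p = 0.056), which passed with a minimum of 50 counts in 3 libraries (adjusted p = 0.039) and in a fit of the 2 groups alone (adjusted p = 0.024). HOXB5 lay the other way at -0.51 ± 0.20 (adjusted p = 0.12; 0.034 in a fit of the 2 groups alone), and HOXB13 at 0.30 ± 0.14 (adjusted p = 0.18).

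Against NTC DMSO, C-body null left 7 of the 9 genes lower and 1 higher, where 26.6% of all genes were called, 12.4% lower and 14.1% higher. The median log2 difference of the 9 genes was -1.29. HOXB8 fell by 3.54 ± 0.19 on the log2 scale (edgeR adjusted p = 8.8e-10), to 8.51% of the NTC DMSO mean, and HOXB9 fell by 3.20 ± 0.17 (adjusted p = 7.0e-10), to 10.8%. HOXB2 fell by 1.41, HOXB3 fell by 1.38, HOXB7 fell by 1.29 and HOXB6 fell by 1.22, with adjusted p-values from 4.5e-09 to 3.9e-05. HOXB4 fell by 0.40 ± 0.10 (adjusted p = 0.0060), the only comparison in which it passed the test in the fit of all 12 libraries. HOXB5 rose by 0.61 ± 0.20 (adjusted p = 0.035), but this call ended when any of 5 libraries was left out: NTC DMSO replicate 1 (adjusted p = 0.11), NTC DMSO replicate 2 (0.40, adjusted p = 0.18), or C-body null replicate 1 (adjusted p = 0.060), 2 (adjusted p = 0.056) or 3 (adjusted p = 0.13). HOXB13 had a log2 difference of -0.07 (95% interval -0.37 to 0.22) and passed the test in none of the 6 comparisons.

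**Figure D3:**
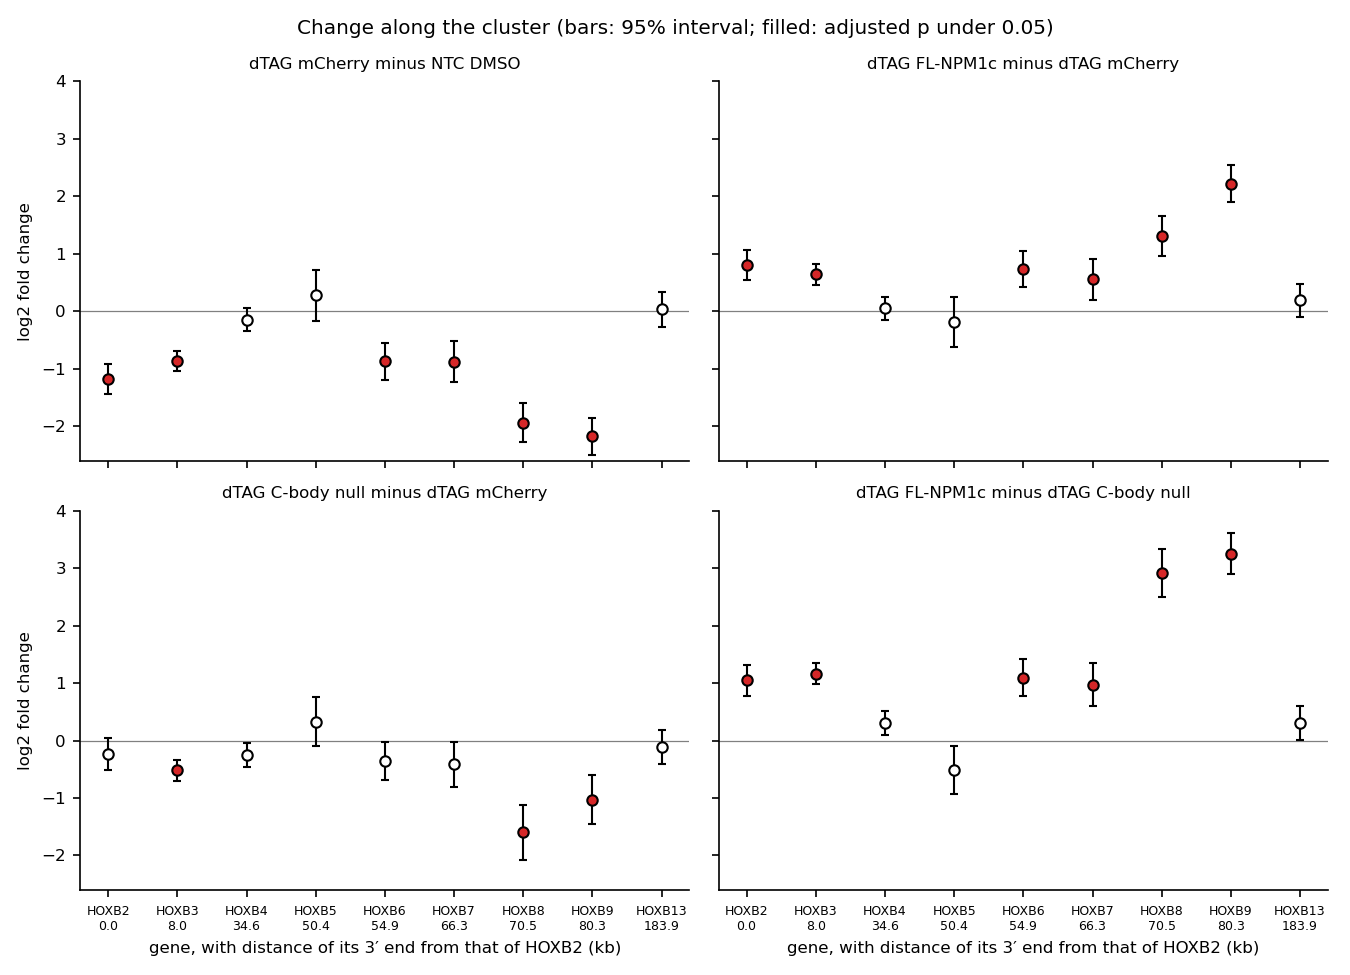
Log2 fold change of each HOXB gene in 4 comparisons, in the order of the cluster from its 3′ end, with the distance of each gene's 3′ end from that of HOXB2 in kb; bars are 95% intervals and filled points passed the test. HOXB8 and HOXB9 lie furthest from 0 (3.25 for HOXB9 between the constructs), while HOXB4, HOXB5 and HOXB13 are open points in all 4 panels.

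Neighbouring genes can be compared within a library, which removes differences in library total. These 3 ratios were picked after the levels were seen and are given as values. HOXB6 over HOXB5, whose annotated ends are 1.789 kb apart, was 3.06 ± 0.36 for NTC DMSO (log2 of the CPM ratio; SD over 3 libraries), 1.81 ± 0.49 for dTAG mCherry, 2.78 ± 0.17 for FL-NPM1c and 1.17 ± 0.03 for C-body null. HOXB3 over HOXB4 was 1.87 ± 0.05, 1.14 ± 0.18, 1.74 ± 0.04 and 0.88 ± 0.05 in the same groups. Both ratios were lowest with C-body null, and NTC DMSO and FL-NPM1c lay above the other groups. HOXB9 over HOXB8 was 0.35 ± 0.17 in NTC DMSO, 0.11 ± 0.10 in dTAG mCherry, 1.03 ± 0.30 for FL-NPM1c and 0.69 ± 0.23 for C-body null, so both constructs' groups had more HOXB9 relative to HOXB8 than dTAG mCherry, with no overlap.

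Across the 12 libraries, log2 CPM of HOXB3 and HOXB8 correlated at a Pearson r of 0.99, and that of HOXB8 and HOXB9 at 0.96. HOXB5 had negative correlations with each of the other 8 genes, from -0.78 with HOXB2 to -0.27 with HOXB13, and HOXB13 ran from 0.37 to 0.62 with the others. These are descriptions of 12 libraries that fall into 4 groups and share the group differences.

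Other genes of the cluster interval were tested too. Of 18 annotated genes there besides the 9, 6 passed the filter. HOXB-AS3, an antisense RNA that runs across HOXB3 to HOXB6, was at 38.9 CPM in NTC DMSO, 18.3 in dTAG mCherry, 34.4 for FL-NPM1c and 12.3 for C-body null (means of 3). It fell by 1.08 ± 0.12 in dTAG mCherry against NTC DMSO (edgeR adjusted p = 3.5e-06) and was higher by 1.48 ± 0.12 with FL-NPM1c than with C-body null (adjusted p = 4.2e-07). HOXB-AS1 followed, at 18.8, 11.0, 15.6 and 7.64 CPM, and was higher by 1.03 ± 0.09 with FL-NPM1c than with C-body null (adjusted p = 1.3e-06). HOXB-AS2 was near 1 CPM or below in all groups (0.845 to 0.249) and was higher by 1.44 ± 0.38 with FL-NPM1c than with C-body null (adjusted p = 0.025). Because HOXB-AS1 and HOXB-AS3 overlap exons of HOXB2, HOXB3, HOXB5 and HOXB6, these values and theirs are not fully separate.

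Beside HOXB13, the short entries RF02132 and MIR3185 had log2 differences of 1.65 ± 0.44 (adjusted p = 0.012) and 1.26 ± 0.36 (adjusted p = 0.017) in dTAG mCherry against NTC DMSO, at mean levels from 0.117 to 0.416 CPM. PRAC2, the protein-coding gene next to HOXB13, had a log2 difference of 0.82 ± 0.30 there (adjusted p = 0.058). Both short entries lie within its annotated span (48723168 to 48724758), RF02132 on its strand and MIR3185 on the other. The values of these entries and of PRAC2 may therefore not be separate. HOXB1, at the 3′ limit of the cluster, was at 0 CPM in 3 groups and 0.0055 CPM with FL-NPM1c.

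Genes on both sides of the cluster were examined in the same way. Within 500 kb on the 3′ side, 7 genes were tested. The nearest protein-coding one among those tested, SNX11 (a sorting nexin), had log2 differences from -0.18 to 0.07 in the 6 comparisons and no call. SNX11 spans 48103357 to 48123074 and is not adjacent to the cluster. SKAP1 (48133440 to 48430275) lies between them and was at 0 CPM in every group. On the 5′ side 9 were tested, and the nearest protein-coding one, CALCOCO2 (an autophagy receptor), had log2 differences from -0.08 to 0.34. It was called in 1 of the 6 comparisons, higher with FL-NPM1c than in NTC DMSO by 0.34 ± 0.09 (edgeR adjusted p = 0.0091).

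Some flanking genes were called in more than 1 comparison, and these are named after their values were seen. COPZ2 (a coat protein of transport vesicles), on the 3′ side, was at 8.29, 9.45, 13.7 and 10.3 CPM in NTC DMSO, dTAG mCherry, FL-NPM1c and C-body null. With FL-NPM1c it was higher by 0.54 ± 0.09 than in dTAG mCherry (edgeR adjusted p = 0.0010), by 0.73 ± 0.09 than in NTC DMSO (adjusted p = 2.7e-05) and by 0.41 ± 0.09 than with the other construct (adjusted p = 0.0068). With C-body null COPZ2 was also higher than in NTC DMSO, by 0.31 ± 0.09 (adjusted p = 0.018). CBX1 (a heterochromatin protein), on the same side, was lower than in NTC DMSO in each of the other 3 groups, with a log2 difference of -0.42 ± 0.09 in dTAG mCherry (adjusted p = 0.0018). On the 5′ side ATP5MC1 (a subunit of ATP synthase) was lower with FL-NPM1c than with C-body null, at -0.25 ± 0.07 (adjusted p = 0.035). With C-body null it was higher than in NTC DMSO by 0.22 ± 0.07 (adjusted p = 0.030). ABI3 was at 0.0171 CPM in NTC DMSO and 0.409, 0.829 and 0.692 CPM in the other groups, and was called higher in all 3. At its NTC DMSO level a fitted fold change depends on the prior count. Between the constructs COPZ2 and ATP5MC1 were the calls among the 7 and 9 flanking genes tested, whose log2 differences ran from -0.35 to 0.41. Of all genes, 9.68% were called there.

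**Figure D4:**
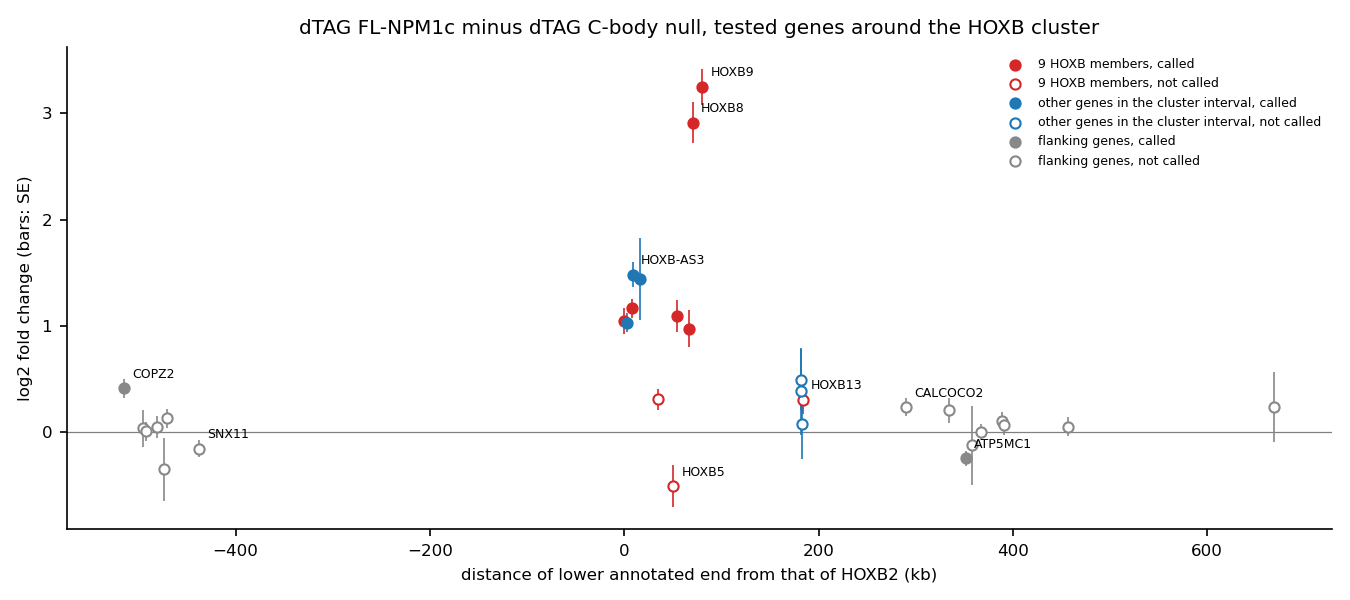
Log2 fold change of FL-NPM1c against C-body null for tested genes within 500 kb of the HOXB cluster, by distance of the lower annotated end from that of HOXB2; bars are 1 SE, and filled points passed the test. HOXB8 (2.91) and HOXB9 (3.25) stand above the rest, HOXB-AS3 lies at 1.48, and flanking genes lie between -0.35 and 0.41.

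Of 11 HOXA genes, the companion cluster on chromosome 7, 7 were tested. In dTAG mCherry against NTC DMSO 6 fell and none rose, with FL-NPM1c against dTAG mCherry 5 rose, with C-body null against dTAG mCherry 4 fell, and between the constructs 6 were higher with FL-NPM1c. Of all genes, 22.6%, 15.5%, 0.594% and 9.68% were called in the same order of comparisons. The median log2 differences of the 7 were -0.95, 0.58, -0.56 and 0.96 in these comparisons. HOXA3, at 0.350 CPM or below in every group mean, had the largest differences in 3 of these comparisons: it fell by 2.28 ± 0.64 in dTAG mCherry against NTC DMSO (edgeR adjusted p = 0.016), and was higher with FL-NPM1c by 2.89 ± 0.58 against dTAG mCherry (adjusted p = 0.0037) and by 3.25 ± 0.60 against the other construct (adjusted p = 0.0019). HOXA9, a driver of self-renewal in leukaemia, was at 60.6, 42.9, 45.0 and 29.02 CPM in NTC DMSO, dTAG mCherry, FL-NPM1c and C-body null. Its log2 difference between FL-NPM1c and dTAG mCherry was 0.07 ± 0.09 (edgeR adjusted p = 0.63), beside 2.22 for HOXB9. Against NTC DMSO, FL-NPM1c left 4 HOXA genes lower and C-body null left 6 lower, where 13.3% and 12.4% of all genes were lower. None of the 9 HOXC or 9 HOXD genes passed the filter.

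Of 9 TALE cofactor genes, 8 were tested. Of all genes, 22.6% were called in dTAG mCherry against NTC DMSO and 15.5% with FL-NPM1c against dTAG mCherry. The shares were 0.594% with C-body null against dTAG mCherry and 9.68% between the constructs. MEIS1, which binds DNA together with HOX proteins, fell by 0.81 ± 0.09 in dTAG mCherry against NTC DMSO (edgeR adjusted p = 3.9e-06). In the C-body null group it fell by 0.68 ± 0.09 against dTAG mCherry (adjusted p = 0.0019). With FL-NPM1c against dTAG mCherry its log2 difference was 0.25 ± 0.09 (adjusted p = 0.059), and none of the 8 genes was called there. Against NTC DMSO, MEIS1 stayed lower with FL-NPM1c (-0.55 ± 0.09, adjusted p = 0.00021) and with C-body null (-1.49 ± 0.09, adjusted p = 3.3e-09). MEIS3 was the 1 cofactor that rose in dTAG mCherry against NTC DMSO, by 1.56 ± 0.19 (adjusted p = 1.4e-05), and 3 of the 8 fell. Between the constructs MEIS1 alone was called, higher with FL-NPM1c by 0.93 ± 0.09 (adjusted p = 3.6e-06).

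Genes whose products act on HOX clusters were counted in the same way. The menin-MLL list of 15 genes is mixed and also holds genes that are not subunits of the complex, such as XPO1, AFF1 and MLLT1. Among these 15 genes, 4 fell and none rose in dTAG mCherry against NTC DMSO. Of all genes tested, 22.6% were called there, 12.9% higher and 9.69% lower. The largest change was that of PSIP1, the chromatin tether of the complex, which fell by 0.47 ± 0.10 (edgeR adjusted p = 0.0031). None of the 15 was called between C-body null and dTAG mCherry or between the constructs, where 0.594% and 9.68% of all genes were. With FL-NPM1c against dTAG mCherry 2 rose, MLLT1 (0.36 ± 0.11, adjusted p = 0.042) and MEN1, and 2 fell, AFF1 (-0.38 ± 0.09, adjusted p = 0.014) and MLLT3 (-0.38 ± 0.12, adjusted p = 0.046). Of all genes, 15.5% were called with FL-NPM1c against dTAG mCherry. MLLT1, AFF1 and MLLT3 encode factors of transcription elongation. MEN1, which encodes menin, was at 42.4, 38.5, 49.3 and 45.4 CPM in NTC DMSO, dTAG mCherry, FL-NPM1c and C-body null, and rose with FL-NPM1c against dTAG mCherry by 0.35 ± 0.11 (adjusted p = 0.040). KMT2A, the methyltransferase of the complex, was at 104, 88.5, 94.3 and 98.5 CPM and was not called in any comparison.

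Of 12 Polycomb genes, 1 rose and 5 fell in dTAG mCherry against NTC DMSO, where 12.9% of all genes were higher and 9.69% lower. CBX2 changed most there, in that it fell by 0.70 ± 0.11 (edgeR adjusted p = 0.00027), and it was also the 1 Polycomb gene called between the constructs, higher with FL-NPM1c by 0.48 ± 0.11 (adjusted p = 0.011). Between the constructs 9.68% of all genes were called, 4.82% higher with FL-NPM1c and 4.86% lower. With FL-NPM1c against dTAG mCherry 3 of the 12 rose and none fell, where 15.5% of all genes were called. These were CBX2 (0.68 ± 0.11, adjusted p = 0.00095), PCGF2 (0.42 ± 0.11, adjusted p = 0.022) and RING1 (0.41 ± 0.11, adjusted p = 0.017). Of 9 upstream regulators of HOX genes (CDX factors, retinoic acid receptors and CTCF), 7 were tested. CDX2, an activator of HOX genes in the embryo, was at 1.81, 1.51, 2.98 and 1.72 CPM in NTC DMSO, dTAG mCherry, FL-NPM1c and C-body null, and rose with FL-NPM1c against dTAG mCherry by 0.96 ± 0.17 (adjusted p = 0.0016). Between the constructs CDX2 was higher with FL-NPM1c by 0.79 ± 0.17 (adjusted p = 0.0059). In dTAG mCherry against NTC DMSO, 1 of the 7 rose, RXRA by 0.36 ± 0.10 (adjusted p = 0.020), and 1 fell, CTCF with a log2 difference of -0.23 ± 0.07 (adjusted p = 0.023).

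Outside the cluster, 12197 protein-coding genes with a mean of at least 1 CPM were ranked by Pearson r of log2 CPM over the 12 libraries. Those most like HOXB9 were IRX5 (r = 0.983), ANXA2R (0.983), TP53INP2 (0.981), LHX6 (0.980) and CHRM4 (0.979). Among the genes most like HOXB2 were PGAP4 (r = 0.986), TWSG1 (0.973), IQCD (0.972) and LHX6 (0.971). TP53INP2, for example, had means of 102, 48.4, 94.2 and 26.0 CPM in NTC DMSO, dTAG mCherry, FL-NPM1c and C-body null. These values rank similarity over 12 libraries in 4 groups, and were taken from the top of that ranking.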

How the data were processed

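RNA of sorted OCI-AML3 degron cells was made into stranded mRNA libraries, per the labels' protocols. Whole-number read counts per Ensembl gene were deposited by the authors in 1 table. Tools and build in the submitters' processing notes are STAR, featureCounts, DESeq2 and hg38. Annotation release, strand setting and multi-mapping reads: not given in the sources used here. Columns were matched to samples by library number, an inference from the labels. Of the lines read, 6 were broken and left out. Symbols came from a gene name table and GENCODE 29, which also gave coordinates and exon lengths.

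Counts were fitted with edgeR 4.0.16 in R 4.3.3: filterByExpr by group (24064 genes kept; 0.0795% of counts removed), TMM factors (0.975 to 1.02), and 1 robust quasi-likelihood fit of all 12 libraries with 1 mean per group, so that groups pool their spread (common coefficient of variation 0.0975). Adjusted p under 0.05 over all genes tested was called; SE is the absolute log2 fold change over the square root of F. The test was checked on simulated data. The depth of 30.5 to 59.9 M counts leaves the lowest HOXB values at 11 to 15 counts, so counting error is part of their spread. Log2 CPM used a prior count of 2.

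The members and lists were chosen with earlier results of these data known. All 9 genes are named in every comparison; of each list the counts, fixed key genes and genes with the largest calls are named. Other fits used DESeq2 1.42.0, library totals, RLE factors, other count filters, each pair of groups alone, a replicate block, or 1 library fewer. Promoters came from the RefSeq table, which was searched for all 9 genes. Python 3.11.15 was used to read tables and draw figures. Some items among the genes ranked and the marker lists are not reported here.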

Additional observations from a re-analysis of the deposited data

How the results depend on the processing

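Of 702 refits of a member's log2 difference, 21 lost a call and 8 gained one; 4 changed sign, all for differences that passed in no fit. The number of HOXB genes called stayed within 1.5 times that of the fit of all libraries under every alternative except 4. With C-body null and dTAG mCherry fitted alone it was 1 in place of 3. For FL-NPM1c against NTC DMSO it was 1 in place of 2 without NTC DMSO replicate 1, FL-NPM1c replicate 1 or FL-NPM1c replicate 3. In that comparison it ran from 1 to 3 as libraries were left out. Leaving out libraries gave 6 to 6 for dTAG mCherry against NTC DMSO, 5 to 6 for FL-NPM1c and 2 to 3 for C-body null against dTAG mCherry, 6 to 6 between the constructs, and 7 to 8 for C-body null against NTC DMSO. Over all genes, C-body null against dTAG mCherry gave 143 calls, 357 with DESeq2, 368 without a filter and 63 with the 2 groups alone; dTAG mCherry against NTC DMSO gave 5429 and 3402 with the 2 groups alone; FL-NPM1c against C-body null gave 2329 and 4410 with the 2 groups alone. As libraries were left out, calls over all genes ran from 1621 to 6834 for FL-NPM1c against dTAG mCherry, 1365 to 2148 between the constructs and 4190 to 7807 for FL-NPM1c against NTC DMSO; the cause was not tested. Same-numbered libraries correlated from -0.31 to 0.16 in their deviations from group means. Differently numbered ones reached 0.40 (dTAG mCherry replicate 2 with NTC DMSO replicate 3), so these values cannot tell whether the numbers pair the samples. With the replicate block, 6, 5, 3, 6, 2 and 8 HOXB genes were called in the 6 comparisons as ordered above (mCherry against NTC DMSO, FL-NPM1c and C-body null against mCherry, the constructs, FL-NPM1c and C-body null against NTC DMSO); HOXB7 with FL-NPM1c against dTAG mCherry had an adjusted p of 0.060 under it, and calls over all genes for C-body null against dTAG mCherry were 86. Low counts limit HOXB8, HOXB9 and HOXB5 most.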
